A study of Mus musculus with 9 samples.

Results

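The small heat shock proteins are described here in B16F10 cells, a mouse melanoma line, across 9 RNA-seq libraries. The 6 genes, Hspb1, Hspb2, Hspb6, Hspb7, Hspb8 and Cryab, were taken by name from 54752 gene identifiers in the count table. They were chosen by family, with the counts and changes of all 9 libraries already known, so their changes against the control are given as a description, with no p-value, and counts of calls among them stand only beside the share over all genes. All 6 were among the 17931 genes tested, and each had at least 10 reads in every library.

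The libraries fell into 3 groups of 3. GFPsg, labelled wild type, carried a guide whose name points to GFP and served as the control. Tada2bsg1 (guide 1) and Tada2bsg2 (guide 2) were both labelled Tada2b knockout. The gene Tada2b codes for an adaptor of the acetyltransferase module of SAGA, a transcriptional coactivator complex. All cells were grown in DMEM with FBS, and no other treatment, clone or pool is named in the labels. The labels do not say whether the 3 replicates of a group were separate cultures, so p-values rest on the variation among these libraries alone, which may be technical.

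Small heat shock proteins are chaperones built around a conserved alpha-crystallin domain. They assemble into oligomers, bind unfolding proteins without using ATP and hold them for refolding by HSP70 or for degradation. Several are abundant in muscle, where they associate with actin filaments, desmin and filamin, and some are induced by heat through heat shock factor 1 (HSF1). HSF1 binds repeats of the unit GAA and its reverse complement in promoters.

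The promoters of the family bear on whether the genes share a known regulatory sequence. RefSeq windows of build GRCm38.p6, reaching 250 bases before to 50 bases after an annotated start, matched 4 of the 6 genes. Hspb6 had 2 windows, and Hspb1, Hspb7 and Hspb8 had 1 each. The printed Hspb6 stretch is counted from the RefSeq start at 30553301. That stretch lies inside the gene's annotated span of 30552178 to 30555443 and not before it. Each window was searched on both strands for the heat shock element pairs GAANNTTC and TTCNNGAA, the AP-1 site TGANTCA, the TEAD site CATTCC and the SRF CArG box. The stretches that held a match are printed 5′ to 3′ on the gene's strand, with each match in capitals.
Hspb1, chr5:135887769-135887918, plus strand, 150 bases ending just before the start: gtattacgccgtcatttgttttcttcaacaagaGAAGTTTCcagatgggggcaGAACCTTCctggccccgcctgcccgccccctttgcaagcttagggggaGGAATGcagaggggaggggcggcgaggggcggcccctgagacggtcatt
Hspb6, chr7:30553151-30553260, plus strand, bases -150 to -41 from the start: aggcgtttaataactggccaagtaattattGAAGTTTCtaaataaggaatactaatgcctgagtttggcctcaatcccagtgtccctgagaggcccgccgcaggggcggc
Hspb7, chr4:141420759-141420788, plus strand, bases -20 to 10: gcacatctggatggaatcccagcCATTCCa
Hspb8, chr5:116422855-116422884, minus strand, bases -20 to 10: gctcccagcccagaagccaggaGAAGTTTC

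The pair GAANNTTC was found at 2 places in the Hspb1 window, first at bases -117 to -110 and again at -97 to -90. It was also found at -120 to -113 in 1 Hspb6 window and at 3 to 10 in the Hspb8 window, and not in the Hspb7 window. Of 32851 promoter windows of the same length, 7.86% held it. The same 8 letters, GAAGTTTC, stood in the Hspb1, Hspb6 and Hspb8 windows, against 1.21% of all windows. These letters were picked from the matches in the windows themselves, so this share is a description and no measure of enrichment. The TEAD site was found in Hspb1 at -49 to -44, read on the other strand, and in Hspb7 at 4 to 9, against 14.7% of all windows. TTCNNGAA (8.52% of all windows), the AP-1 site (7.81%) and the CArG box (1.63%) were not found in these 5 windows. No match overlapped another, and a match is a run of letters and not a shown binding site.

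Library totals ranged from 70555655 to 76923854 reads. No pair of replicates agreed within sampling noise (chi-square per degree of freedom 5.38 to 16.4). Tada2b was counted at 26.6 ± 1.40 CPM in GFPsg, 32.8 ± 0.53 with guide 1 and 27.0 ± 1.73 with guide 2 (reads scaled to the same library total after TMM scaling, mean ± SD, n = 3). The mRNA was not reduced under the knockout label, and counts over a whole gene do not show an edited site, so the label was not checked by it. All 7 melanocyte markers listed (Mlana, Pmel, Tyr, Tyrp1, Dct, Mitf and Sox10) were read in every group. Their summed level was 20322 to 21118 CPM in GFPsg, 4973 to 5210 with guide 1 and 7032 to 7274 with guide 2.

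Hspb7, Hspb6 and Hspb1 were several-fold higher with both guides than in the control, Hspb8 and Cryab were modestly higher, and Hspb2 stayed within the spread of its libraries. As a description, 5 of the 6 genes lay on the higher side of the call threshold with each guide (edgeR, Benjamini-Hochberg adjusted p under 0.05 over all tested genes) and none on the lower side. Over all tested genes 48.4% were called in either direction with guide 1 and 45.1% with guide 2. By direction, 23.8% of all tested genes were higher with guide 1 and 22.1% with guide 2, while 24.5% and 23.0% were lower. Both comparisons use the same 3 control libraries, and nothing is read from the count because the genes were listed with these contrasts known. Of all called genes, 49.3% were higher with guide 1 and 49.0% with guide 2, or 63.1% and 65.1% when libraries were scaled by their size alone.

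**Figure D1:**
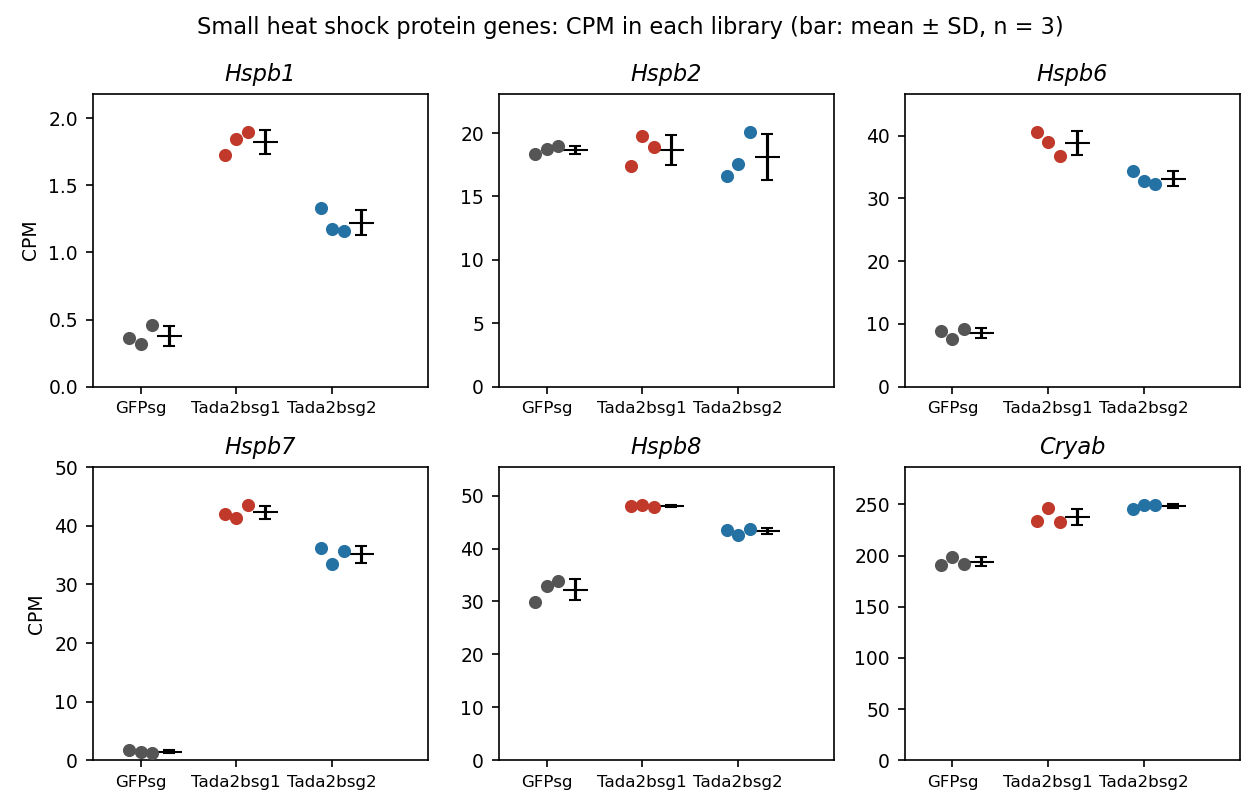
CPM of each small heat shock protein gene (vertical axes, from 0) in each library (points), by group, with the mean ± SD of 3 libraries beside them. The groups labelled knockout lie above GFPsg without overlap for every gene except Hspb2.

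Hspb7 encodes a small heat shock protein that is mostly known from heart and skeletal muscle, where it associates with filamin C and thin filaments. The gene (ENSMUSG00000006221) lies on chromosome 4 from 141420779 to 141425311 on the plus strand (mm10, as for all positions of genes here). Its level was 1.74, 1.44 and 1.23 CPM in GFPsg, at 42.1, 41.3 and 43.5 CPM with guide 1 and at 36.2, 33.5 and 35.7 CPM with guide 2. The 3 groups did not overlap, and the control libraries held 88 to 129 reads. Its log2 change was 4.84 ± 0.08 (SE) with guide 1, or 28.7-fold, and 4.57 ± 0.08 with guide 2, or 23.8-fold. It ranked 60th and 53rd from the top of the 17931 tested genes.

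Hspb6 encodes HSP20, which binds 14-3-3 proteins when phosphorylated by protein kinase A and is abundant in muscle. The gene (ENSMUSG00000036854, chromosome 7, 30552178 to 30555443, plus strand) was counted at 8.80, 7.60 and 9.23 CPM in GFPsg. It stood at 40.6, 39.0 and 36.8 CPM with guide 1 and at 34.4, 32.8 and 32.2 CPM with guide 2. Every library labelled knockout was above every control library, with a log2 change of 2.18 ± 0.07 (SE) with guide 1 and 1.95 ± 0.07 with guide 2. Its exons share 122 bases with Proser3 and 3 bases with Lin37, both on the opposite strand, and 77 bases with the miRNA gene Gm38670 on the same strand, where strand cannot separate reads. Proser3 and Lin37 stood at 3.86 and 14.1 CPM in GFPsg, and neither was called with either guide (edgeR adjusted p = 0.0844 or above).

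Hspb1 encodes the protein called HSP25 in mice and HSP27 in humans, a stress-inducible chaperone that MAPKAP kinases phosphorylate. The gene (ENSMUSG00000004951, chromosome 5, 135887919 to 135889563, plus strand) was counted at only 0.36, 0.31 and 0.46 CPM in GFPsg, which is 21 to 33 reads. It stood at 1.72, 1.84 and 1.90 CPM with guide 1 and at 1.33, 1.17 and 1.16 CPM with guide 2, with no overlap between groups. Its log2 change was 2.25 ± 0.19 (SE) with guide 1 and 1.67 ± 0.20 with guide 2.

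The level of Hspb1 is uncertain because its transcript has near-identical copies. It aligned to the processed pseudogene Hsp25-ps1 over 630 bases at 99.4% identity and to Gm9817, which overlaps that pseudogene, over 493 bases at 99.8%. Both lie on chromosome 13 between 45078498 and 45081222. They held at most 3 and 6 reads in any library, and adding their reads to Hspb1 gave log2 changes of 2.10 and 1.55, with the genes called as before. Reads that align equally well to several places are dropped by HTSeq by default, so they may be in none of these counts. The setting used was not given in the sources used here.

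Hspb8 encodes HSP22, which works with the co-chaperone BAG3 in chaperone-assisted autophagy. The gene (ENSMUSG00000041548, chromosome 5, 116408491 to 116422864, minus strand) was counted at 29.9, 33.0 and 33.9 CPM in GFPsg. It stood at 48.1, 48.2 and 47.9 CPM with guide 1 and at 43.5, 42.6 and 43.7 CPM with guide 2. The 3 groups did not overlap, and the log2 change was 0.58 ± 0.05 (SE) with guide 1 and 0.42 ± 0.05 with guide 2.

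Cryab encodes alpha-B-crystallin, a lens crystallin that is also made in muscle, heart and glia. The gene (ENSMUSG00000032060, chromosome 9, 50751325 to 50756636, plus strand) was counted at 191, 199 and 192 CPM in GFPsg. It stood at 234, 246 and 233 CPM with guide 1 and at 246, 249 and 249 CPM with guide 2. The control libraries were below all others, while the ranges of the guides overlapped, and the log2 change was 0.29 ± 0.04 (SE) with guide 1 and 0.35 ± 0.04 with guide 2.

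Hspb2, also called MKBP, binds and activates the kinase DMPK in muscle. The gene (ENSMUSG00000038086, chromosome 9, 50751078 to 50752354, minus strand) was counted at 18.3, 18.7 and 19.0 CPM in GFPsg. It stood at 17.4, 19.8 and 18.9 CPM with guide 1 and at 16.6, 17.6 and 20.1 CPM with guide 2. All 3 groups overlapped, and the log2 change was -6.5e-06 ± 0.07 (SE) with guide 1 and -0.05 ± 0.07 with guide 2.

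Hspb2 and Cryab overlap head to head, and 252 bases of their exons are the same stretch read from opposite strands. Libraries were made with a stranded kit, but the strand setting of the counting was not given in the sources used here. Reads of these bases cannot be assigned to one gene without strand, so the 2 levels are less certain than their replicate spread shows. The values differed all the same, since Cryab was higher with both guides in every library and Hspb2 was not.

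**Figure D2:**
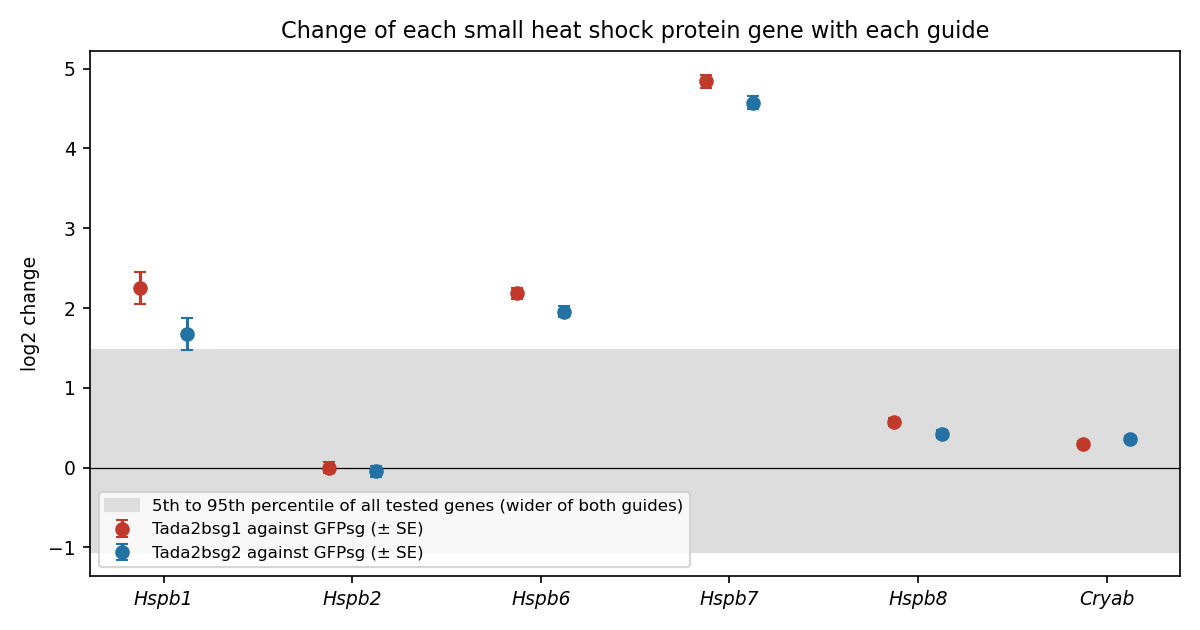
Log2 change of each small heat shock protein gene (vertical axis) with guide 1 and guide 2 against GFPsg (points, ± SE). The grey band is the wider of the 2 ranges from the 5th to the 95th percentile of all tested genes, that of guide 1 (-1.05 to 1.47, against -0.88 to 1.34 for guide 2), and Hspb7, Hspb6 and Hspb1 lie above it with both guides.

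The guides were compared with each other directly, which asks whether the 2 labelled knockouts gave the same levels. Hspb7 was lower with guide 2 than with guide 1 by a log2 difference of -0.27 ± 0.06 (SE; edgeR adjusted p = 0.0153), and Hspb6 by -0.23 ± 0.06 (edgeR adjusted p = 0.0446). In both genes the 3 guide 2 libraries lay below the 3 guide 1 libraries. Over all tested genes 3.68% were called in this contrast, 1.02% lower and 2.66% higher. The 6 genes were listed with these libraries known, so the test is not independent of their choice.

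The other differences between the guides did not pass the test. Hspb1 differed by -0.58 ± 0.17 (edgeR adjusted p = 0.0721) and Hspb8 by -0.15 ± 0.05 (edgeR adjusted p = 0.0972), with guide 2 below guide 1 in 3 of 3 libraries for each. Cryab differed by 0.06 ± 0.04 (edgeR adjusted p = 0.423) and Hspb2 by -0.05 ± 0.07 (edgeR adjusted p = 0.788). Hspb1 and Hspb8 were called when only the 2 groups compared were fitted (edgeR adjusted p = 0.0485 and 0.0460), and Hspb8 also without GFPsg replicate 1 (0.0337). Both were also called with a replicate block (edgeR adjusted p = 0.0494 and 0.0275). Hspb7 and Hspb6 were both lost without guide 1 replicate 2, guide 1 replicate 3 or guide 2 replicate 2, when the adjusted p lay from 0.0548 to 0.0998 for Hspb7 and from 0.0606 to 0.161 for Hspb6. Hspb6 was also lost without guide 1 replicate 1 (adjusted p = 0.171), without guide 2 replicate 3 (0.0917) and with library size alone (0.0869).

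Levels of different genes were compared per length, in TPM, which is reads per base of summed exon length scaled to the same total in every library. In GFPsg the order was Cryab at 257 ± 8.71 TPM, Hspb2 at 43.9 ± 1.58, Hspb8 at 32.3 ± 1.09, Hspb6 at 7.29 ± 0.94, Hspb7 at 1.05 ± 0.23 and Hspb1 at 0.72 ± 0.15 (mean ± SD, n = 3). Only the last 2 neighbours in this order, Hspb7 and Hspb1, overlapped between libraries. With guide 1 Cryab stood at 334 ± 14.0 TPM, Hspb8 at 51.1 ± 1.90, Hspb2 at 46.4 ± 1.95, Hspb6 at 35.1 ± 2.91, Hspb7 at 31.7 ± 1.07 and Hspb1 at 3.66 ± 0.06, and here Hspb6 and Hspb7 overlapped. The order with guide 2 was the same as with guide 1, and there Hspb8 (46.8 ± 1.32) and Hspb2 (45.7 ± 3.32) overlapped. Taking the longest transcript as the length left each gene's place in the order as it was.

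Cryab made up most of the family's transcripts in every library. Its share of the summed TPM of the 6 genes was 75.1 ± 0.71% in GFPsg, 66.5 ± 0.47% with guide 1 and 69.9 ± 0.60% with guide 2. Hspb7 went from 0.30 ± 0.06% in GFPsg to 6.32 ± 0.31% with guide 1 and 5.29 ± 0.21% with guide 2. Hspb6 went from 2.13 ± 0.24% to 6.99 ± 0.37% and 6.01 ± 0.27%, while Hspb2 went from 12.8 ± 0.19% to 9.26 ± 0.45% and 9.04 ± 0.80%. The summed level of the 6 genes was 342 ± 10.4 TPM in GFPsg, 502 ± 18.5 with guide 1 and 506 ± 8.28 with guide 2. The large fold changes of Hspb7 and Hspb6 thus stood beside a smaller fold of Cryab that added more TPM.

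**Figure D3:**
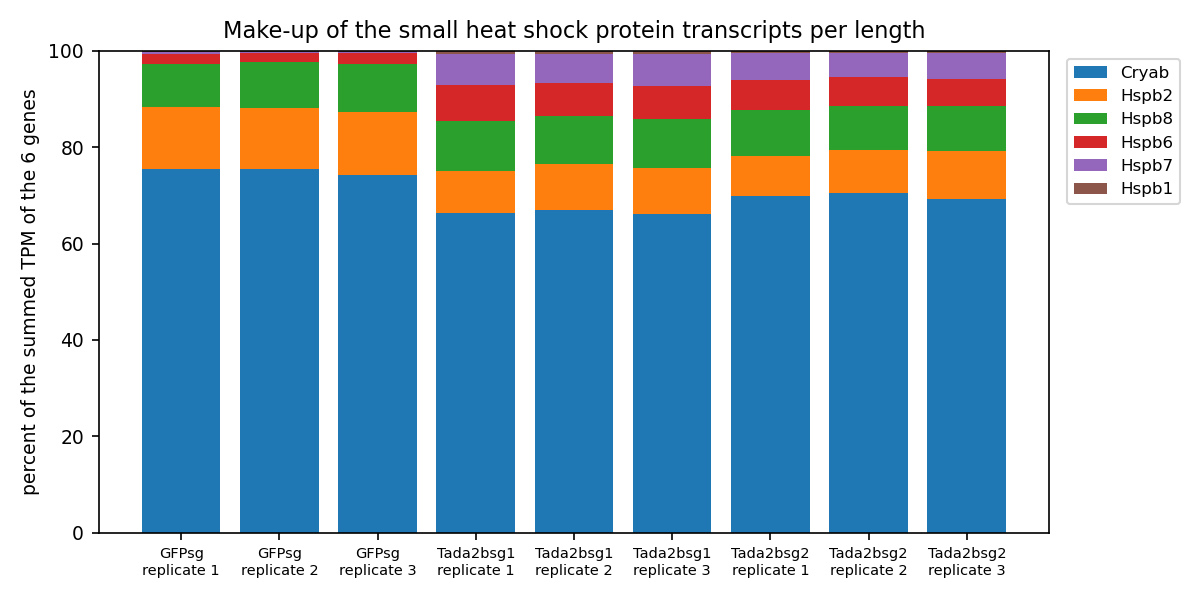
Share of each gene in the summed TPM of the 6 small heat shock protein genes (vertical axis, percent) in each of the 9 libraries (bars). Cryab takes the largest share throughout, and the Hspb7 and Hspb6 segments are wider in the 6 libraries labelled knockout.

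The family has other members with an alpha-crystallin domain that were not on the list, and these were close to unread. Hspb3 had at most 8 reads, Cryaa, the lens alpha-A-crystallin gene, at most 1 and Odf1, a sperm tail protein gene, at most 1 in any library. Hspb9, a testis gene, had 6 to 20 reads and was the only 1 of these 4 that was tested, with no call (log2 change -0.17 and 0.00 with the 2 guides, edgeR adjusted p = 0.796 and 0.995). Hspb11 carries a family name but encodes a subunit of the intraflagellar transport complex. It was looked at after its values were seen, and rose from 6.38 ± 0.11 CPM in GFPsg to 17.2 ± 1.28 with guide 1 and 14.0 ± 0.98 with guide 2 (log2 change 1.43 and 1.13, edgeR adjusted p = 4.57e-11 and 1.57e-09).

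Heat shock factors, which bind the element described above, and Hsbp1 were measured beside the family. Whether the 6 genes are targets of these factors in the cells used here was not tested. Of the 5 genes listed 1 rose and 4 fell with guide 1, and 1 rose and 3 fell with guide 2. Over all tested genes 23.8% were called higher and 24.5% lower with guide 1, and 22.1% and 23.0% with guide 2. Hsf1, the main heat-responsive factor, rose slightly from 35.8 ± 1.52 CPM in GFPsg to 41.8 ± 0.15 and 43.2 ± 0.46 (log2 change 0.22 and 0.27, edgeR adjusted p = 0.000427 and 7.39e-05). Hsf4, the factor of lens development, fell from 15.6 ± 0.62 CPM to 7.03 ± 0.48 and 9.32 ± 0.49 (log2 change -1.15 and -0.74, edgeR adjusted p = 5.86e-10 and 1.77e-07). Hsbp1, which encodes a protein that binds HSF1, fell (-0.23 and -0.25), and Hsf2 fell by a smaller step (-0.14 and -0.14) that was lost with both guides with library size alone or without GFPsg replicate 2 or 3. It was also lost with guide 1 without guide 1 replicate 3, and with guide 2 without guide 2 replicate 1 or 3, in DESeq2 and when only the 2 groups were fitted. Hsf5, with 5 to 16 reads per library, passed the filter on low counts only through the control libraries, which favours a fall. It was called lower with guide 1 (-1.30, edgeR adjusted p = 0.0347) and not with guide 2 (-0.78, edgeR adjusted p = 0.186). The guides did not differ by test in it (edgeR adjusted p = 0.648). The call with guide 1 was lost in DESeq2, with no filter on low counts and without any 1 of the 6 libraries compared.

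Most heat-inducible chaperones outside the family changed by small steps, though some, such as Hspa1b and Fkbp4, changed more. Of 18 heat-inducible chaperone genes 8 rose and 1 fell with guide 1, leaving 9 without a call. With guide 2, 7 rose and 3 fell, leaving 8. Of all tested genes 48.4% were called with guide 1 and 45.1% with guide 2, so nothing is read from these counts. With library size alone, 15 of the 18 were called with guide 1. The median log2 change of the 18 genes was 0.11 and 0.08, against -0.01 and -0.02 over all tested genes. Hspa1b, an inducible HSP70 gene, rose from 3.81 ± 0.18 CPM to 7.03 ± 0.47 and 7.60 ± 0.14, a log2 change of 0.88 and 1.00 (edgeR adjusted p = 1.31e-07 and 3.45e-08), though its level is uncertain because Hspa1a is known as a near-identical copy. How reads of these copies were counted was not tested. Dnajb4, an HSP40 gene, rose by 0.53 and 0.47. The 1 gene that fell with both guides was Fkbp4, which encodes an HSP90 co-chaperone, at -0.62 and -0.55. Dnajb1 (-0.12) and Dnaja1 (-0.11) were also called lower with guide 2. Both calls were lost in DESeq2, with library size alone and without most single libraries, all but GFPsg replicate 1 for Dnaja1 and all but that library and guide 2 replicate 2 for Dnajb1.

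Partners of Hspb8 and Hspb7 in chaperone-assisted selective autophagy, a route that clears damaged filamin, were split. Of 9 genes 5 rose and 4 fell with guide 1, and 5 rose and 3 fell with guide 2. By comparison, 48.4% of all tested genes were called with guide 1 and 45.1% with guide 2. The list was chosen with earlier results known, so nothing is read from its count. Flnc, which encodes the muscle filamin C, rose from 0.17 ± 0.02 CPM to 1.03 ± 0.08 and 1.02 ± 0.20 (log2 change 2.60 and 2.58, edgeR adjusted p = 2.83e-07 and 3.82e-07). Flna (0.37 and 0.38), the autophagy receptor gene Sqstm1 (0.22 and 0.19) and Bag3 (0.42 and 0.48) also rose. Synpo2, the link to autophagosome formation, fell from 0.50 ± 0.12 CPM to 0.26 ± 0.10 and 0.20 ± 0.02 (-0.97 and -1.35), and Vps16 (-0.30 and -0.23) and Vps18 (-0.31 and -0.29) of the membrane tethering complex fell. The ubiquitin ligase gene Stub1 fell with guide 1 (-0.23), a call lost with library size alone, and was not called with guide 2 (-0.10). Synpo2 was not called with guide 1 in DESeq2 or without GFPsg replicate 1, GFPsg replicate 3, guide 1 replicate 2 or guide 1 replicate 3.

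Kinases of the pathways that phosphorylate small heat shock proteins also moved both ways. Of 11 tested genes 5 rose and 3 fell with guide 1, and 4 rose and 3 fell with guide 2. The share called over all tested genes was 48.4% with guide 1 and 45.1% with guide 2, and nothing is read from the count. Mapkapk2, the kinase of HSP25, rose from 82.0 ± 2.67 CPM to 109 ± 2.96 and 107 ± 3.10 (log2 change 0.41 and 0.38, edgeR adjusted p = 2.02e-07 and 6.58e-07). Mapkapk3 (0.32 and 0.24), Mapk12 (0.43 and 0.27) and the protein kinase D gene Prkd2 (0.49 and 0.41) rose with both guides and Mapk13 (0.26) with guide 1. The call of Mapk13 was lost without GFPsg replicate 2 or guide 1 replicate 1 or 2, in DESeq2 and with no filter, and that of Prkd2 with guide 2 without GFPsg replicate 2. Prkd3 (-0.54 and -0.48), Mapk11 (-0.38 and -0.37) and Prkacb (-0.35 and -0.23) fell, and the p38 gene Mapk14 was at 0.02 and 0.04 with no call. Prkd1 had at most 2 reads in any library and was not tested.

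Genes for clients and binding partners of the family were listed with earlier results known, so nothing is read from their count of calls. All 10 were called with each guide, 8 higher and 2 lower, with a median log2 change of 0.31 and 0.32. Among all tested genes 23.8% were called higher and 24.5% lower with guide 1, and 22.1% and 23.0% with guide 2. Dmpk, the kinase that Hspb2 binds, rose from 7.11 ± 0.58 CPM to 32.8 ± 1.48 and 32.3 ± 2.00 (log2 change 2.20 and 2.18, edgeR adjusted p = 3.84e-14 and 6.73e-14), while Hspb2 did not. Des, which encodes the muscle filament desmin, rose by 1.36 and 1.29 from 1.13 ± 0.24 CPM, and Actn1, an actin crosslinker gene, by 1.20 and 1.16 from 81.4 ± 5.66 CPM. The 2 that fell were Gfap, a glial filament gene (-1.18 and -0.86), and Ttn, which encodes titin (-0.88 and -0.59, the call with guide 2 lost without GFPsg replicate 3).

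**Figure D4:**
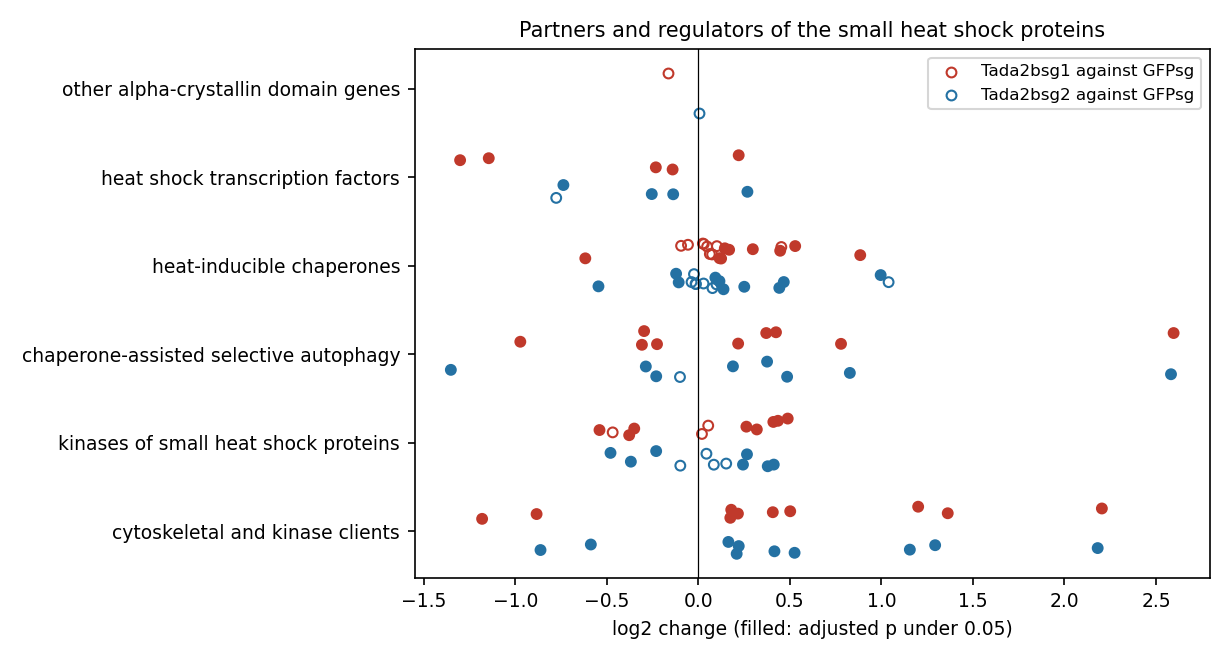
Log2 change against GFPsg (horizontal axis) of each tested gene in the 6 lists of partners and regulators, with guide 1 and guide 2 in different colours and filled points for adjusted p under 0.05. Flnc and Dmpk lie farthest to the right, above 2 with both guides.

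Because Hspb7, Hspb6 and Cryab are muscle genes, markers of muscle were read beside them. Of 13 striated muscle markers 9 had at most 3 reads in every library, and Myod1, Myh2 and Myh7 were at 0 throughout. Their summed level was 0.83 to 1.09 CPM in GFPsg, 6.68 to 7.71 with guide 1 and 5.07 to 5.90 with guide 2, nearly all of it from the troponin gene Tnnt2 (0.80 ± 0.12, 7.05 ± 0.57 and 5.09 ± 0.54 CPM). The 7 smooth muscle markers summed to 13.6 to 16.02 CPM in GFPsg, 23.3 to 24.0 with guide 1 and 22.1 to 24.8 with guide 2, mostly Smtn. In this list Lmod1 rose by a log2 of 3.05 and 2.87. Smtn was called higher with guide 2 only, and Tagln with neither guide. Cnn1, with at most 14 reads, was called higher with guide 1 only and passed the filter only through those libraries. Myh11, Acta2 and Myocd had at most 13, 9 and 2 reads in any library and were not tested. The 7 lens markers summed to 16.8 to 17.7, 7.56 to 8.84 and 9.19 to 10.5 CPM, nearly all from the lens filament gene Bfsp2, and Crygd was at 0 throughout.

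Markers of other cells were as follows. The 6 fibroblast markers summed to 4.87 to 7.20 CPM in GFPsg, 13.2 to 14.2 with guide 1 and 12.5 to 14.9 with guide 2, mostly Pdgfrb, which rose by a log2 of 1.43 and 1.46. Col3a1, a fibrillar collagen gene with at most 26 reads in any library, averaged 0.01 CPM in GFPsg. It was called higher with both guides but passed the filter on low counts only through the guide libraries, so that it had to differ. Pdgfra was not called, and Dcn, which encodes a fibroblast matrix protein, had no more than 1 read in any library. The 6 leukocyte markers summed to 2.56 to 2.96, 6.25 to 6.55 and 5.46 to 5.83 CPM. The 2 that were tested, the macrophage genes Cd68 (log2 change 1.10 and 1.09) and Lyz2 (1.34 and 0.83), rose with both guides, while Itgam and Ptprc, which encodes the pan-leukocyte antigen CD45, were at 0 throughout. The part of other cell types in the changes of the small heat shock protein genes was not tested. In bulk RNA a change in the share of cells and a change in RNA per cell cannot be told apart.

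The genes lie at 5 places in the genome, and tested genes within 50 kb were read to see whether the changes were shared along the chromosome. Around Hspb6, Psenen fell slightly (-0.18 and -0.23) and the other 7 were not called. Around Hspb2 and Cryab, 2310030G06Rik rose (0.62 and 0.60) and Dixdc1 fell (-0.24 and -0.15). Next to Hspb8 the antisense gene Srrm4os was higher (1.35 and 1.38, from 8 to 15 reads per control library). Srrm4os passed the filter on low counts only through the guide libraries, which favours a rise. Next to Hspb1 the 14-3-3 gene Ywhag rose (0.17 and 0.16).

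Near Hspb7, Fam131c lies 36603 bases before its start. It went from 1 to 5 reads per library in GFPsg to 85 to 99 with guide 1 and 72 to 79 with guide 2 (log2 change 4.59 and 4.36). It passed the filter on low counts only through the guide libraries, so that it had to differ. Downstream, Zbtb17, 19342 bases past the end of Hspb7, was at 54.8 ± 2.20 CPM in GFPsg, 55.6 ± 0.83 with guide 1 and 54.9 ± 1.07 with guide 2, with no call (edgeR adjusted p = 0.702 and 0.969). Spen, beyond it, fell (-0.38 and -0.20), and its call with guide 2 was lost with library size alone, when only the 2 groups were fitted, and without GFPsg replicate 1 or guide 2 replicate 2 or 3.

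The genes with the most alike pattern were found by the root mean square difference of log2 CPM, each gene centred on its own mean, over the 9 libraries and among 11055 genes that averaged 1 CPM or more and had no clone or predicted name. Nearest to Hspb7 were Lrig1 (0.16), which encodes an inhibitor of receptor kinases, the collagen gene Col1a1 (0.17) and the cytokine receptor gene Il18rap (0.17). Nearest to Hspb6 were the matricellular protein genes Ccn4 (0.07) and Ccn1 (0.08), then Steap2 (0.08), which encodes a metalloreductase. Nearest to Hspb1 were Adamts9 (0.14), a secreted protease gene, Hacd4 (0.17) and Plaur (0.17), the urokinase receptor gene.

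The 3 genes with smaller changes had closer matches. Hspb8 was nearest to Anxa7 (0.03), Gja1 (0.03), which encodes connexin 43, and Eif4a2 (0.04). Cryab was nearest to the ubiquitin conjugation genes Ube2m (0.03) and Ube2j1 (0.03) and to Gosr2 (0.03). Hspb2 was nearest to Mettl26 (0.03), Mrps31 (0.04) and Eapp (0.05). No member was among the 3 nearest genes of another member. The 9 points of each comparison are 3 groups of 3 and share their libraries, so the measure is a description.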

How the data were processed

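RNA-seq libraries were made with a stranded mRNA kit, per the labels' protocols. The authors deposited raw counts of reads per gene, which they made with bcl2fastq, HISAT2 and HTSeq on mm10, per the submitters' processing notes. Tool versions, the annotation release and the strand setting: not given in the sources used here. Of 54752 identifiers 54723 matched GENCODE M21, which gave symbols, exon lengths and mm10 coordinates. Promoters came from RefSeq (GRCm38.p6).

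Counts were tested with edgeR 4.0.16 (quasi-likelihood F test, R 4.3.3) in 1 fit of all 3 groups, with filterByExpr (count minimum 10, 17931 genes) and TMM scaling. CPM used TMM-scaled library sizes. Standard errors are the change over the square root of F. P-values were adjusted over all tested genes and called under 0.05. Counts for guide 1 against GFPsg were simulated over 17931 genes, all with the common biological coefficient of variation of 0.0526. In them the fit recovered 89.0% of genes changed by a log2 of 1 and 78.0% of those changed by 0.5. These shares do not give the power for genes with a wider spread. Transcripts were aligned with blastn 2.17.0.

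Members and gene lists were chosen with earlier results of these data known. Of the longer lists up to 3 genes called alike with both guides were named by size of change, with others named where a count was 5 or fewer. Neighbours were chosen after their values were seen. Some genes of these lists and neighbourhoods are not reported here. Alternatives were other scalings, no filter, DESeq2 1.42.0, fits of 2 groups, a replicate block and leaving out each library.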

Additional observations from a re-analysis of the deposited data

Results flagged for a closer look

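Between the 2 guides, 2 of the 6 genes were called in a direct test, beside 3.68% of all tested genes. The 6 genes were listed with these libraries known, so the test is not independent of their choice. Both calls were lost without guide 1 replicate 2, guide 1 replicate 3 or guide 2 replicate 2. Hspb7 was lower with guide 2 than with guide 1 by a log2 difference of -0.27, and Hspb6 by -0.23, both in edgeR with adjusted p under 0.05 and in 3 of 3 libraries. Against the control the same genes stood 4.57 to 4.84 and 1.95 to 2.18 higher on the log2 scale, so that the difference between guides was small beside the change they shared. Groups of 3 were not examined for single libraries that stand apart.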

How the results depend on the processing

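Against GFPsg, the direction and side of the threshold, given as a description, of Hspb1, Hspb6, Hspb7, Hspb8 and Cryab and the lack of a call for Hspb2 held with each guide under all 16 alternatives listed, and for Hspb1 also with the reads of its copies added, an alternative chosen after seeing the data. Their count stayed at 5. Between the guides 2 members were called, against 1 with library size alone, 4 when only the 2 groups compared were fitted, and 0 to 3 when each library was left out in turn. A replicate block gave 4, adding Hspb1 (edgeR adjusted p = 0.0494) and Hspb8 (0.0275). The replicate numbers were not taken to pair the libraries in the main fit. The correlation of deviations between same-numbered libraries ran from -0.01 to 0.10 over 9 pairs, and 1 pair exceeded 0.1. Between differently numbered libraries it ran from -0.09 to 0.04. Low correlations do not show that the libraries were unpaired, so the block stands as an alternative. Over all genes the calls between the guides went from 660 to 1705 with the block, 1070 with no filter, and as low as 335 without guide 1 replicate 3. With guide 1, the heat shock factor list had 3 to 5 genes called when each library was left out, and the heat-inducible chaperones went from 9 to 15 with library size alone. The causes were not tested. No change that was called turned its sign under the alternatives run. Some changes with no call did, among them those of Hspb2 and Hspb9. Hspb2 with guide 2 went from -0.05 to 0.04 with library size alone and 0.03 without guide 2 replicate 1, and with guide 1 it ran from -0.04 to 0.08. Hspb9 with guide 1 went from -0.17 to 0.05 and 0.11 without GFPsg replicate 2 or 3. Hspb1, at 21 to 33 reads per control library, was the least deeply read member.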
